A study of Mus musculus with 8 samples.

Results

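Liver tumours of mice on a high fat diet were compared with the livers of mice on a normal diet, gene by gene, across the whole array. The comparison used 5 of the 8 arrays of the study, namely the 3 labelled tumour tissue of high fat diet livers (mice 117, 186 and 1) and the 2 labelled normal diet livers (mice 117 and 120). According to the labels every mouse, the controls included, had received the carcinogen DMBA (7,12-dimethylbenz[a]anthracene) at 4 to 5 days of age and was then kept on its diet for 30 weeks until it was killed. The other 3 arrays, of non-tumour liver from the same high fat diet mice, entered the estimate of the spread and are quoted beside the tumours where they help. The number 117 appears under both diets and was taken to stand for 2 animals, which the labels do not state, so nothing was treated as paired. No tumour from a mouse on normal diet is among the samples, and diet and tumour therefore vary together and cannot be told apart. Strain and sex are not given in the labels. The arrays measured RNA of whole tissue pieces, in which fewer cells of a type and less RNA per cell cannot be told apart, and the p values rest on the spread between these few arrays.

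The adult hepatocyte makes most plasma proteins, burns and exports fat, turns nitrogen into urea, makes bile acids and clears drugs and steroids with cytochrome P450 enzymes. These tasks are divided along the lobule, with urea synthesis and amino acid breakdown near the portal vein, and glutamine synthesis and much drug metabolism near the central vein under Wnt signals. Liver tumours that keep hepatocyte features commonly lose part of these tasks and re-express genes of the fetal liver such as Afp and Gpc3, and fast growing cells are known for raised sterol synthesis, protein folding and amino acid synthesis.

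Levels below are normalized signals, that is quantile normalized array signals above the blank level, on which the median gene tested stood at 31.2 and the 99th percentile at 4280. Quantile normalization gives genes of the same rank the same value, so the brightest genes repeat values between arrays. Normal diet values are listed in the order of mice 117 and 120, and those of the tumours and non-tumour livers in the order of mice 117, 186 and 1. Differences are log2 differences of tumour minus normal diet liver ± SE, computed on the signal plus an offset of 50, which understates the change of dim genes. A gene "rose" or "fell" where limma's adjusted p was below 0.05. The authors listed 81.8% to 88.5% of the probes on each array as above background. The 2 normal diet arrays correlated at 0.996 over all genes and the tumours at 0.984 to 0.992 among themselves, against 0.919 to 0.946 between tumour and normal diet arrays. Of 8 hepatocyte markers the summed signal was 277868 to 289664 in tumours and 214623 to 220858 in normal diet liver, so tissue of both labels carried hepatocyte RNA at high levels.

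Of 16796 genes tested, 4670 (27.8%) differed between tumours and normal diet liver, 2161 upward (12.9%) and 2509 downward (14.9%). Among them 399 rose and 341 fell by more than 2-fold on the scale of the signal plus the offset. The offset understates the change of dim genes, so these counts do not show how large most changes in signal were. The groups did not overlap in any of the 4670, but they did not overlap in 9620 (57.3%) of all genes tested either. The median log2 difference over all genes was -0.01. Of the called genes 46.3% were higher in tumours. This share was 39.0% after scaling to the same median and 31.9% with the authors' deposited values, on which the median gene stood 0.18 log2 units lower in tumours and the 1534 brightest genes 0.45 lower in the median. Without one of the normal diet arrays 2326 (without mouse 117) or 2495 (without mouse 120) genes passed. With each spot's local background in place of the blank spots 217 passed, among them 55 of the 183 called genes named in the text. The local background rose with spot brightness, with rank correlations of 0.902 to 0.96 on the 8 arrays.

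The counts over 45 lists of liver genes gave the outline. Cholesterol synthesis, protein folding, ATF4 targets, oncofetal genes, keratins, annexins and the cell cycle had more rises than falls. Cytochrome P450 enzymes, conjugation enzymes, bile acid genes, amino acid breakdown, zonated genes and the respiratory chain had more falls than rises. With the local background no list kept more than 8 rises or 7 falls. The lists were chosen with earlier results of these data known, and their counts are descriptions to be read against the 12.9% and 14.9% above.

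**Figure D1:**
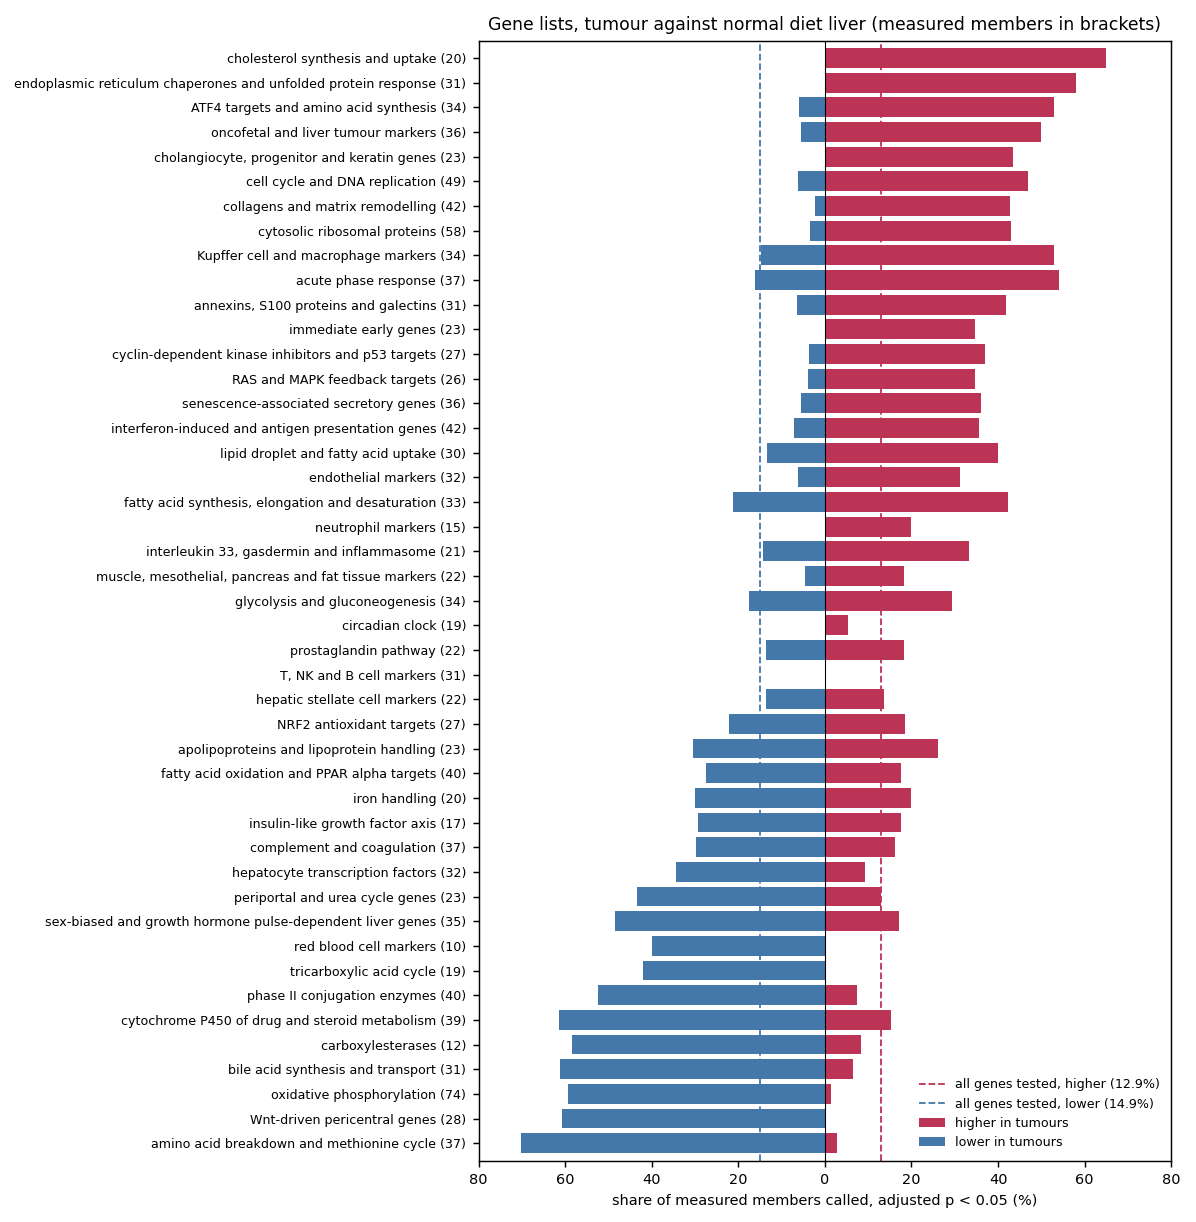
Bars show, for each gene list, the percent of measured members that rose (right) or fell (left) in tumours against normal diet liver, with the shares over all genes tested (12.9% and 14.9%) as lines. Oxidative phosphorylation, with 44 of 74 members lower, and cholesterol synthesis, with 13 of 20 higher, lie far out on opposite sides.

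Among the 15 largest rises were Ly6d, Spink1, Tspan8 and Akr1c18, and genes of the fetal liver rose as well. Ly6d, a GPI-anchored surface protein of epithelia and lymphoid precursors, stood at 27.98 and 26.8 in normal diet liver and at 10269.5, 7794 and 12838 in the tumours (7.03 ± 0.23, adjusted p 5.14e-05). Spink1, a secreted trypsin inhibitor, went from 5.03 and 4.35 to 3507, 1988 and 2463 (5.59 ± 0.25, adjusted p 9.20e-05). Afp, the main plasma protein of the fetal liver, was at 4.36 and 6.73 in normal diet liver and at 912, 781 and 1567 in tumours (4.29 ± 0.26, adjusted p 0.000248). In each of these genes all tumours lay far above both normal livers. Gpc3, a heparan sulfate proteoglycan used as a marker of liver cancer, had signals of 5.41 and 6.47 and 965, 1139 and 778 (4.16 ± 0.14). Tspan8, a tetraspanin of epithelial membranes, rose from 12.2 and 26.1 to 5047, 2695 and 5755 (5.98 ± 0.39). Akr1c18, a 20-alpha-hydroxysteroid dehydrogenase, rose from 20.3 and 20.9 to 5549, 4042 and 5948 (6.19 ± 0.37). Tumour 186 was the lowest of the tumours for Ly6d, Spink1, Afp, Tspan8 and Akr1c18, but the highest for Gpc3.

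Of the 36 measured genes on the oncofetal and tumour marker list 18 rose and 2 fell, with a median log2 difference of 0.61 (19 rose and 6 fell after scaling to the same median, median 0.58; 22 rose and 3 fell with the authors' values, median 1.69). Several of these genes were chosen for the list because they had moved in these samples. Prom1, the stem and progenitor cell antigen CD133, rose from 3.47 and 7.33 to 78.6, 61.1 and 112. Pkm, the pyruvate kinase of fetal and growing tissue, rose from 27.6 and 18.96 to 66.4, 68.4 and 93.3. The imprinted genes on the list went different ways. Igf2, the fetal growth factor, was at 4.24 and 4.70 in normal diet liver and 7.20, 5.35 and 7.46 in tumours, near the blank level in both (0.06 ± 0.04, adjusted p 0.322). H19, the maternally expressed RNA beside Igf2, was at 1.47 and 1.16 against 26.3, 447 and 27.2, with tumour 186 far above the others. It was not called (1.48 ± 0.79, adjusted p 0.217), but it was with the authors' values and without tumour 186. Meg3, a maternally expressed RNA of another imprinted cluster, fell from 1547 and 1217 to 310.4, 578 and 292 (-1.74 ± 0.26, adjusted p 0.00446). Epcam, an adhesion molecule of bile duct and progenitor cells, did not pass, with 13.8 and 24.1 against 49.7, 30.1 and 19.1.

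**Figure D2:**
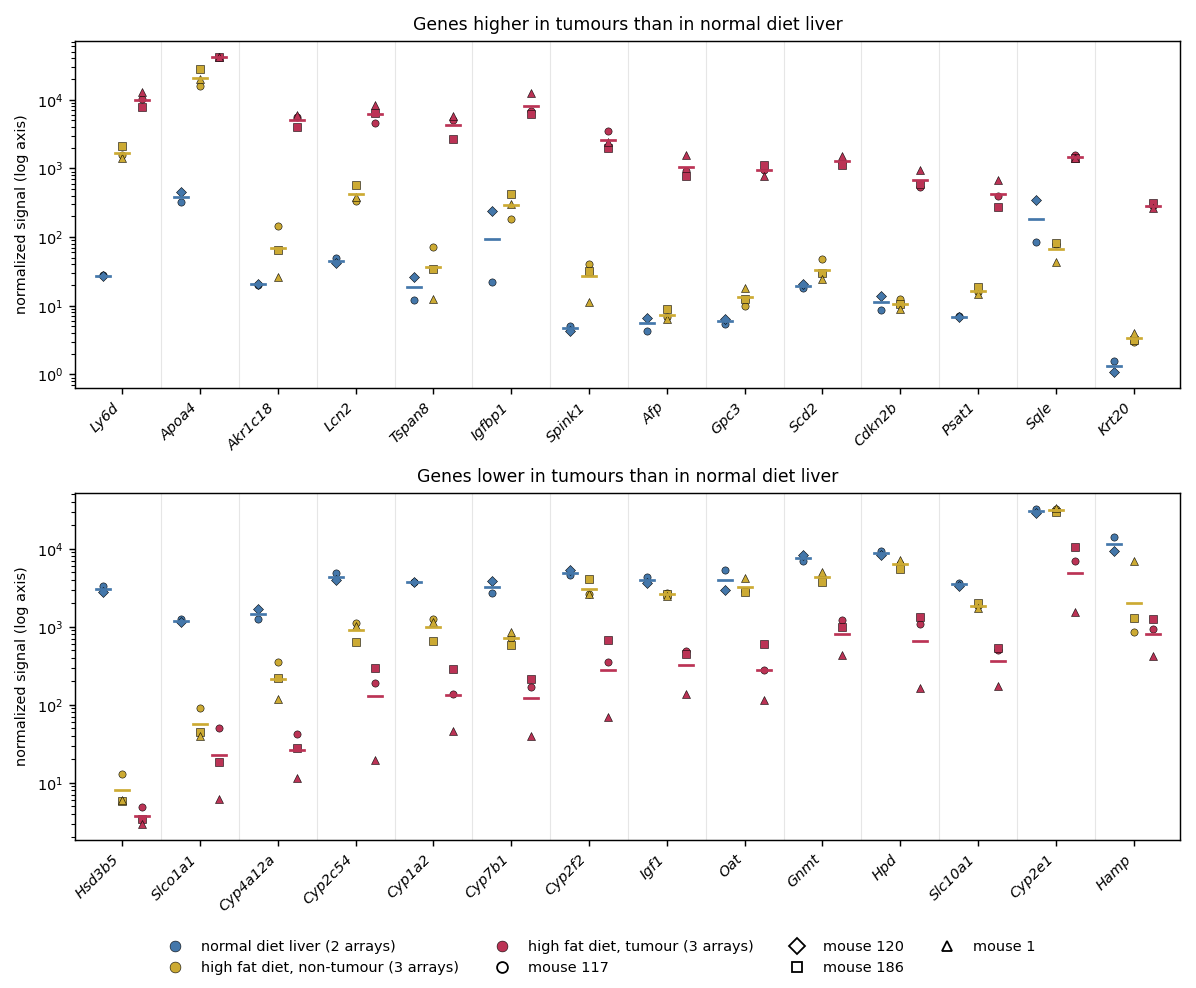
Each panel plots the normalized signal (log axis) of genes that rose (top) or fell (bottom) on each array, with a marker shape per mouse, colours for normal diet liver, non-tumour and tumour tissue, and bars at the mean of the log2 values. Tumour arrays lie apart from the normal diet arrays for every gene shown, and tumour 1 is the lowest of the tumours for every gene in the bottom panel.

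Further large rises were measured for Apoa4, Lcn2, Igfbp1, Tff3 and Ifi27l2b. Apoa4, an apolipoprotein of intestine and fatty liver, was at 330.1 and 451 in normal diet liver and, by equal rank, at the same 42751, 42751 and 42751 in the tumours (6.62 ± 0.24). Lcn2, an iron-siderophore binding protein of the acute phase, rose from 49.3 and 41.9 to 4537, 6371 and 8334 (6.04 ± 0.28). Igfbp1, the insulin-repressed binding protein of insulin-like growth factors, differed widely between the normal livers (22.5 and 239), yet all tumours were far above both at 6952, 6213 and 12494 (5.82 ± 0.63, adjusted p 0.00149). Tff3, a trefoil peptide of mucous epithelia, rose from 11.01 and 26.7 to 1810.1, 1287 and 1021 (4.34 ± 0.59). Ifi27l2b, an interferon-inducible mitochondrial protein family member, rose from 122 and 98.4 to 3495, 2868 and 3865 (4.43 ± 0.15). The probes that the array table assigns to Prkcq and Lrsam1 were also among the 15 largest rises, at log2 differences of 5.30 ± 0.16 and 4.17 ± 0.14. Prkcq encodes a protein kinase C of T cells and Lrsam1 a ubiquitin ligase. Among the 15 largest falls were likewise probes assigned to Fshb, the beta chain of a pituitary hormone, Il17a, a T cell cytokine, and Zfp474 (-5.15 ± 0.72, -4.01 ± 0.49 and -3.96 ± 0.41). Whether those probes detect the named transcripts was not tested.

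Drug and steroid metabolism was mostly lower in tumours. Of 39 measured cytochrome P450 genes 24 fell and 6 rose, with a median log2 difference of -0.83 (5 rose and 27 fell with the authors' values, median -1.68). Cyp2c54, an arachidonic acid epoxygenase family member, had signals of 4834 and 4020.1 in normal diet liver and 193, 294 and 19.7 in tumours (-4.63 ± 0.65, adjusted p 0.00354). Cyp1a2, which oxidizes caffeine and aromatic amines, was at 3770.1 and 3717 and 139, 285 and 46.05 (-4.38 ± 0.52, adjusted p 0.002). Cyp2c50 fell from 3594 and 3369.7 to 197, 296 and 10.6, and Cyp2c37 from 2749 and 2326 to 109, 172 and 18.4. In all 4 genes tumour 1 was the lowest and the groups were far apart. Cyp2f2, an enzyme of the periportal hepatocyte and the airway, went from 4597 and 5332 to 354, 675 and 69.8 (-3.93 ± 0.70, adjusted p 0.00825; 0.0507 without normal diet 117 and 0.056 without normal diet 120). Cyp2c29 went from 8661 and 6371 to 746, 824 and 89.95 (adjusted p 0.0137; 0.088 without normal diet 117 and 0.0639 without normal diet 120). Members of the Cyp2c, Cyp3a and Cyp4a families, and likewise of the Ugt, H2 and Saa families, are near-identical copies, and how far a probe separates them was not tested.

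The 6 cytochrome P450 genes that rose included inducible and sex-biased enzymes. Cyp17a1, the steroid 17-alpha-hydroxylase, rose from 23.4 and 25.8 to 775, 695 and 1260.1 (3.64 ± 0.23, adjusted p 0.000295). Cyp2b9, a female-biased enzyme, rose from 17.6 and 7.67 to 1219, 1215 and 1423 (4.42 ± 0.18). Cyp2b10, the classical target of the receptor CAR, rose from 84.5 and 43.7 to 453, 524 and 549 (2.31 ± 0.18). Cyp2a4, a steroid hydroxylase, was at 4741 and 7216 against 27776, 17618 and 20435 (1.87 ± 0.35, adjusted p 0.00936; 0.0676 without normal diet 117). Non-tumour liver of the same mice was already high for Cyp2b9 at 578, 838 and 899 and for Cyp2b10 at 351, 412 and 474.

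Conjugation enzymes and esterases also had more falls than rises. Of 40 measured phase II genes 21 fell and 3 rose (median -0.68; 1 rose and 29 fell with the authors' values, median -1.35). Of 12 carboxylesterases 7 fell and 1 rose (median -1.25). Nat8, an N-acetyltransferase that finishes mercapturic acids, fell from 681 and 789 to 26.3, 28.8 and 10.001 (-3.46 ± 0.14, adjusted p 6.85e-05). Sult2a8, a bile acid sulfotransferase, fell from 4889 and 4276 to 426, 172 and 48.6 (-4.40 ± 0.63). Ces2a and Ces3b, hydrolases of ester drugs and lipids, fell from 5208 and 5061 to 552, 333 and 247 and from 1922 and 1804 to 231, 297 and 57.7. By contrast Ces2e, another member of the Ces2 cluster, rose from 88.4 and 88.98 to 207, 162 and 177 (0.74 ± 0.09).

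The antioxidant targets of NRF2 were split, with 5 of 27 measured members higher and 6 lower (median 0.01; 2 to 5 rose with 1 array left out; 4 rose and 12 fell with the authors' values, median -0.46). Pgd, of the pentose phosphate pathway, rose from 143 and 148 to 369.7, 388 and 402 (1.16 ± 0.05, adjusted p 5.91e-05). Srxn1, sulfiredoxin, rose from 292 and 301 to 835, 1046 and 895. Nqo1, the quinone reductase, did not pass at 41.01 and 41.01 against 72.2, 64.2 and 45.9. It was called after scaling to the same median and without tumour 1. Cat, catalase, and Me1, malic enzyme, fell from 8763 and 7004 to 3529, 4489 and 2964 and from 1788 and 1884 to 824, 1044 and 764.

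Respiratory chain genes were mostly lower, by small amounts per gene. Of 74 measured oxidative phosphorylation genes 44 fell and 1 rose, with a median log2 difference of -0.47 (27 to 44 fell with 1 array left out; 1 rose and 69 fell with the authors' values, median -1.03). Ndufb9, of complex I, fell from 3425 and 3181 to 1649, 1641 and 1647 (-0.98 ± 0.04, adjusted p 6.85e-05). Sdhb, the iron-sulfur subunit of complex II, fell from 1595 and 1679.6 to 838, 994 and 875. Cyc1, cytochrome c1 of complex III, fell from 1679.6 and 2098 to 805, 1057 and 813, and Cox6c of complex IV from 5981 and 5868 to 3248, 2758 and 3594. Unlike the drug metabolism genes, these stood at nearly the same level in the 3 tumours. With the local background the difference of Cox6c turned to 1.69 and did not pass. Of 19 tricarboxylic acid cycle genes 8 fell and 0 rose (0 was higher at an unadjusted p below 0.05 in limma's test; 4 to 10 fell with 1 array left out; 0 rose and 16 fell with the authors' values, median -0.81). Mdh1, the cytosolic malate dehydrogenase counted with them, had the largest fall, from 8111 and 8881 to 2614, 2659 and 2244 (-1.74 ± 0.14, adjusted p 0.000541). Ppargc1a, the coactivator that drives mitochondrial genes, rose from 81.3 and 75.1 to 155, 179 and 170.3 (0.77 ± 0.08), a call that the mean of its probes did not give (adjusted p 0.102).

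Glycolysis was mixed, with 10 of 34 measured glycolysis and gluconeogenesis genes higher and 6 lower (median 0.07; 2 to 7 fell with 1 array left out; 7 rose and 11 fell with the authors' values, median -0.35). Ldha, lactate dehydrogenase A, rose from 3572 and 3686 to 10501, 7254 and 9272 (1.28 ± 0.16, adjusted p 0.00251), and Slc16a1, the lactate carrier MCT1, from 188 and 175 to 314, 351 and 372. Pygl, which breaks down liver glycogen, fell from 1649 and 1513 to 874, 1027 and 728. Pck2, the mitochondrial PEP carboxykinase, rose from 34.4 and 40.6 to 93.5, 79.6 and 124. Fatty acid oxidation and PPAR alpha targets gave 7 rises and 11 falls among 40 measured members (median -0.13; 5 to 13 fell with 1 array left out; 5 rose and 20 fell with the authors' values, median -0.55). Acsl5, an acyl-CoA synthetase, rose from 1775 and 1886 to 7446, 5948 and 5459.8, while Ehhadh, of peroxisomal oxidation, fell from 1393 and 1089 to 605, 580.1 and 393 (adjusted p 0.00606; 0.0502 without normal diet 117).

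Genes that mark zones of the lobule had more falls than rises on both sides of it. Of 28 measured pericentral genes 17 fell and 0 rose (median -0.59, 1 higher at an unadjusted p below 0.05; 8 to 21 fell with 1 array left out; 1 rose and 21 fell with the authors' values, median -2.05). Of 23 periportal and urea cycle genes 10 fell and 3 rose (median -0.59; 5 to 10 fell with 1 array left out; 3 rose and 15 fell with the authors' values, median -1.04). Oat, ornithine aminotransferase of the pericentral zone, fell from 5319.5 and 2999 to 277, 597 and 115 (-3.63 ± 0.57, adjusted p 0.00508). Tbx3, a transcription factor that Wnt signals induce in the liver, fell from 93.8 and 105 to 16.5, 16.8 and 17.4. Glul, glutamine synthetase of the innermost pericentral cells, was at 661 and 691 against 124, 390.5 and 61.2 (-1.83 ± 0.54, adjusted p 0.0475). Its call was lost without any one array other than tumour 186, with adjusted p values from 0.068 to 0.177. Cyp2e1, the ethanol oxidizing enzyme, was at 32333 and 29219 against 6898, 10608 and 1561 (adjusted p 0.0377; 0.163 without normal diet 117, 0.138 without normal diet 120, 0.0638 without non-tumour 117, 0.0602 without tumour 117, 0.0605 without non-tumour 186 and 0.0609 without non-tumour 1). In both genes tumour 186 was the highest and tumour 1 the lowest of the tumours.

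On the periportal side the urea cycle genes Cps1, Ass1 and Asl fell. Cps1, carbamoyl phosphate synthetase, fell from 692 and 571 to 142, 195 and 62.1 (-1.96 ± 0.32, adjusted p 0.00595). Ass1, argininosuccinate synthetase, fell from 5374 and 4379 to 1025, 1120.1 and 808, and Asl, the lyase that follows it, from 1863 and 1911 to 772, 878 and 539.9. Hal, histidase, fell from 2959.5 and 2279.9 to 808, 478 and 649. Aldh1b1, a mitochondrial aldehyde dehydrogenase of the list, rose from 237 and 350.0 to 930.1, 705 and 856. Cdh1, E-cadherin of periportal hepatocytes, was at 105 and 182 against 725, 523 and 1041 (adjusted p 0.0107; 0.0817 without normal diet 117).

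Amino acid breakdown was broadly lower, with 26 of 37 measured genes lower, 1 higher and a median log2 difference of -1.001 (1 rose and 32 fell with the authors' values, median -1.51). Gnmt, the glycine methyltransferase that consumes S-adenosylmethionine, fell from 6952 and 8219 to 1208, 998 and 442 (-3.14 ± 0.38, adjusted p 0.00222). Prodh, proline dehydrogenase, fell from 1040.2 and 1238 to 118, 131 and 25.7 (-3.17 ± 0.37, adjusted p 0.002). Bhmt, which remethylates homocysteine with betaine, fell from 12632 and 16727 to 2874, 3594 and 1312. Cth, which makes cysteine from cystathionine, fell from 3545 and 2874 to 531, 537 and 400.0 (-2.60 ± 0.14). Hpd, of tyrosine breakdown, was at 9464 and 8334 against 1099, 1347 and 167 (adjusted p 0.0141; 0.0837 without normal diet 117 and 0.0712 without normal diet 120). The single rise was Gpt2, the mitochondrial alanine transaminase, from 266 and 289 to 485, 558 and 521.

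Bile acid genes were mostly lower, 19 of 31 with 2 rises (median -1.05; 12 to 19 fell with 1 array left out; 1 rose and 24 fell with the authors' values, median -1.69). Cyp7a1, whose enzyme sets the pace of bile acid production, fell from 150.1 and 153 to 40.4, 33.9 and 12.3 (-1.37 ± 0.17, adjusted p 0.00235). Cyp7b1, of the alternative route, fell from 2686 and 3849 to 171, 214 and 40.2 (-4.23 ± 0.46). Slc10a1, the NTCP transporter that takes bile acids up from portal blood, fell from 3676 and 3375 to 512, 542 and 173 (-3.09 ± 0.41). Akr1d1, the 5-beta-reductase, fell from 1096 and 994 to 256, 234 and 77.1. Cyp39a1, a 24-hydroxycholesterol hydroxylase, went the other way, from 95.05 and 107 to 399, 540.3 and 411 (1.72 ± 0.13, adjusted p 0.000497).

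Sterol synthesis genes mostly rose. Of 20 measured genes 13 rose and 0 fell, with a median log2 difference of 0.75 and 1 lower at an unadjusted p below 0.05 (7 to 13 rose with 1 array left out). Sqle, squalene epoxidase, rose from 85.5 and 353 to 1561, 1423 and 1433 (2.70 ± 0.42, adjusted p 0.00517). Hmgcs1, the cytosolic HMG-CoA synthase, rose from 335 and 542 to 1489, 1708 and 1597 (1.79 ± 0.19). Dhcr7, of the last step, rose from 38.9 and 55.5 to 158, 244 and 203, and Insig1, the sterol sensor's anchor, from 280.3 and 297 to 752, 672 and 539. Non-tumour liver did not share this, with Sqle at 78.8, 82.3 and 43.7 and Hmgcs1 at 339, 442 and 409.

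Desaturases and elongases were among the rises on the fatty acid list, where 14 of 33 measured genes rose and 7 fell (median 0.20; 3 to 7 fell with 1 array left out; 12 rose and 11 fell with the authors' values, median 0.09). Scd2, the stearoyl-CoA desaturase of fetal liver and brain, rose from 18.4 and 20.5 to 1248, 1132 and 1500.4 (4.26 ± 0.15, adjusted p 5.14e-05). Fads2 and Fads1, the delta-6 and delta-5 desaturases, rose from 249 and 234 to 1611, 2155 and 1911 and from 1176 and 1464 to 4420.1, 3739.7 and 4222. Elovl2 and Elovl5, elongases of polyunsaturated chains, rose from 1519.5 and 1188 to 3221, 4318 and 3147 and from 4561 and 3155 to 9090.0, 11212 and 10501. Elovl3, the androgen-dependent elongase of saturated chains, fell from 1659 and 1028 to 51.2, 61.6 and 17.2 (-3.89 ± 0.47). Fasn, fatty acid synthase, did not pass at 1632 and 1589 against 1745, 2446 and 1863 (0.30 ± 0.16, adjusted p 0.215). Pnpla5, a lipase of lipid droplets, rose from 9.62 and 8.72 to 668, 469 and 360.0 (3.18 ± 0.26).

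Lipid storage genes rose in part, 12 of 30 with 4 falls (median 0.01; 7 to 13 rose with 1 array left out; 13 rose and 9 fell with the authors' values, median -0.11). Plin2, the coat protein of hepatocyte lipid droplets, rose from 2082 and 2256 to 6796, 7004 and 8763 (1.76 ± 0.16, adjusted p 0.000721). Fabp4 and Fabp5, fatty acid binding proteins of fat cells, macrophages and epithelia, rose from 102 and 139 to 793, 502 and 1231 and from 15.5 and 32.2 to 183, 113 and 220.0. Lpl, lipoprotein lipase, low in adult liver, rose from 82.7 and 118 to 408, 411 and 395. Cidea, a droplet protein induced in fatty liver, was at 96.1 and 22.3 against 596, 558 and 218 (adjusted p 0.0142; 0.0897 without normal diet 120), below the 1558, 2065 and 1947 of non-tumour liver. Slc27a5, a fatty acid and bile acid CoA ligase, fell from 4276 and 3582 to 1445, 1507 and 1001, and Fitm1, which helps form lipid droplets, from 885 and 845 to 303, 219 and 119.8. Among apolipoproteins 6 of 23 rose and 7 fell (median 0.09; 2 to 7 fell with 1 array left out; 5 rose and 7 fell with the authors' values, median -0.33). Apoc2, the cofactor of lipoprotein lipase, rose from 1939.7 and 1881 to 18223, 18932 and 24737 (3.39 ± 0.12, adjusted p 5.14e-05). Apom, of high density lipoprotein, rose from 775 and 1152 to 2659, 3209 and 3168. Scarb1, the receptor of that lipoprotein, rose from 140.0 and 117 to 303, 379 and 447, while Apoa2 fell from 40776 and 42751 to 30926, 34068 and 30926.

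Of 17 measured genes of the insulin-like growth factor axis 3 rose and 5 fell (median 0.05; 2 to 5 fell with 1 array left out). Igf1, the hormone the liver secretes under growth hormone, fell from 4318 and 3615 to 492, 451 and 137 (-3.43 ± 0.44, adjusted p 0.00253). Igfals, which holds it in the circulation, fell from 498 and 339 to 89.8, 60.98 and 42.6. Igfbp3, the main carrier, rose from 21.3 and 16.7 to 69.7, 110.5 and 79.1, and Igfbp1 rose as given above. Igfbp2 was at 2152 and 3062 against 415, 760.1 and 524 (-2.12 ± 0.36, adjusted p 0.00705; 0.0552 without normal diet 120). Of 35 genes known for sex-biased or pulse-dependent liver expression 17 fell and 6 rose (median -0.76; 6 rose and 20 fell with the authors' values, median -1.41). Hsd3b5, a male-specific steroid enzyme, had the largest fall of all, from 3311 and 2813 to 4.97, 3.48 and 2.99 (-5.85 ± 0.08, adjusted p 2.06e-06). With the local background its difference turned to 0.42 and did not pass. Cyp4a12a, the male-specific 20-HETE synthase, fell from 1256 and 1669 to 42.2, 27.6 and 11.6, and Slco1a1, a male-biased organic anion carrier, from 1271 and 1139 to 51.2, 18.4 and 6.25. Nudt7, a peroxisomal CoA hydrolase, fell from 7194 and 6731 to 928, 784 and 521. Rises were in female-biased Cyp2b9, Cyp2b13 and Cyp17a1, and in Abcd2, a peroxisomal transporter, from 77.2 and 47.2 to 828, 571 and 920.2 (2.86 ± 0.20). The sex of each animal is not in the labels, and its part in these values was not tested.

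Protein folding genes of the endoplasmic reticulum mostly rose. Of 31 measured chaperones and unfolded protein response genes 18 rose and 0 fell (0 were lower at an unadjusted p below 0.05), with a median log2 difference of 0.63 (10 to 18 rose with 1 array left out; 9 rose and 1 fell with the authors' values, median 0.31). Hspa5, the chaperone BiP, rose from 4692 and 4086 to 11398, 10367 and 10269.5 (1.27 ± 0.12, adjusted p 0.001). Pdia6, a disulfide isomerase, rose from 2022 and 1716 to 5113, 4509.8 and 6424 (1.48 ± 0.15). Creld2, a secreted folding factor, rose from 189 and 166 to 579.6, 391 and 553, and Manf, a stress-induced survival factor of the same compartment, from 989 and 826 to 2285, 1969 and 2351. Dnajc10, a reductase for misfolded proteins, rose from 59.7 and 52.3 to 213, 180.1 and 236. Several of these genes are known targets of ATF6, which binds the ER stress element, spelled CCAAT, 9 bases of any kind and CCACG. That element was searched on both strands in the 250 bases before the start of each gene (RefSeq, GRCm38.p6). It stood before 10 of the 28 list members with a RefSeq promoter (35.7%), against 21 of 13195 genes tested (0.159%). Of those 10 genes 5 rose (median log2 difference 0.53) and the others did not pass, beside 18 rises among all 31 list members (median 0.63). Known ATF6 targets are on the list, so its larger share with the element is no finding of these data. Of the 21 genes 8 rose and 3 fell, to be read against 12.9% and 14.9% of all genes tested. List members gave 5 of those 8 rises, as they make up 10 of the 21 genes with the element. The windows below show it in capitals before 3 genes that rose, read 5′ to 3′ along the gene's strand.
Hspa5, chr2:34771990-34772078: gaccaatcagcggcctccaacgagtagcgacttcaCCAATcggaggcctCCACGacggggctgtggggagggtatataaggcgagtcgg
Pdia6, chr12:17266456-17266544: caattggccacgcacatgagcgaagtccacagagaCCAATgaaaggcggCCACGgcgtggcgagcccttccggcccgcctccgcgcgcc
Creld2, chr15:88819485-88819573: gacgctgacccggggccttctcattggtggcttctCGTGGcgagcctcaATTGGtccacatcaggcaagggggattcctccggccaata
The element starts 65 bases before the Hspa5 start and 98 before that of Pdia6, both plus strand genes, and lies reversed 126 bases before that of Creld2. A match of letters shows no binding.

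Of 34 measured targets of ATF4, the factor of the amino acid and stress response, 18 rose and 2 fell (median 0.60; 8 to 21 rose with 1 array left out; 16 rose and 4 fell with the authors' values, median 0.69). Psat1, of serine synthesis, rose from 7.01 and 6.85 to 398, 276 and 689 (3.06 ± 0.30, adjusted p 0.00111). Phgdh, the enzyme before it, was listed on every tumour array and on neither normal liver, at 0.891 and 0.821 against 23.8, 16.01 and 69.01. No test is given for Phgdh, as for the other genes listed in 1 group only. Ddit3, the stress factor CHOP, rose from 145 and 154 to 708, 579 and 537 (1.72 ± 0.18). Ddit4, an mTORC1 inhibitor, rose from 20.6 and 23.4 to 219, 285 and 482. Nupr1, a stress-induced chromatin protein, rose from 6.42 and 5.85 to 143, 75.2 and 195. Chac1, which degrades glutathione, rose from 28.2 and 16.8 to 76.3, 56.9 and 84.3, while non-tumour liver was higher still at 107, 129.6 and 127. Asns, asparagine synthetase, was at 11.6 and 30.3 against 188, 77.8 and 335 (adjusted p 0.0263; 0.148 without normal diet 117, 0.0823 without normal diet 120 and 0.0677 without tumour 117). The CARE element TGATGNAA, to which ATF4 binds with C/EBP partners, was found before 8 of 28 list members with a promoter (28.6%), against 382 of 13195 genes tested (2.9%), and overlaps with other motifs were not examined. Of the 8 members 6 rose and the others did not pass. The list holds known ATF4 targets, so its larger share with the element is no finding of these data. Of the 382 genes with the element 45 rose and 54 fell, to be read against 12.9% and 14.9% of all genes tested. The element is shown in capitals before 3 of the 8 members.
Asns, chr6:7693210-7693267: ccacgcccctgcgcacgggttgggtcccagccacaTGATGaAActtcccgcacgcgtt
Nupr1, chr7:126625538-126625615: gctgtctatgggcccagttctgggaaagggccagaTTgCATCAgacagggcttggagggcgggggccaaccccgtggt
Chac1, chr2:119351014-119351091: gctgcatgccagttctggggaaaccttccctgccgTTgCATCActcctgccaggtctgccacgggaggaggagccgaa
It begins 23 bases before the start of Asns on the gene's own strand, and is reversed 110 and 193 bases before those of Nupr1 and Chac1. Asns and Nupr1 are minus strand genes and Chac1 a plus strand gene. Another motif, the HNF4 site CAAAGTCCA, was found before 7 of 33 cytochrome P450 genes (21.2%), against 72 of 13195 genes (0.546%). Of the 7 genes 6 fell, beside 24 falls among all 39 measured cytochrome P450 genes. Of the 72 genes 11 rose and 20 fell, to be read against 12.9% and 14.9% of all genes tested. The larger share with the site comes from sequence alone, and its bearing on the falls was not tested. All 7 belong to the Cyp2c and Cyp3a copies. Hnf4a itself did not pass at 1115 and 902 against 1245, 865 and 1054 (0.05 ± 0.18, adjusted p 0.853).

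Of 49 measured cell cycle genes 23 rose and 3 fell (median 0.20; 10 to 24 rose with 1 array left out; 23 rose and 4 fell with the authors' values, median 0.58). Ccnd1, cyclin D1, rose from 33.4 and 32.1 to 184, 251 and 193 (1.64 ± 0.11, adjusted p 0.000295). Mki67, the proliferation antigen Ki-67, rose from 12.1 and 11.5 to 28.9, 41.6 and 37.6 (0.47 ± 0.07), near the median gene in signal. Cenpa, the centromeric histone, rose from 60.4 and 78.7 to 148, 195 and 159. Mcm10 and Tk1, of DNA replication and thymidine salvage, fell from 895 and 821 to 186, 167 and 62.1 and from 224 and 219 to 60.3, 68.7 and 44.8. Myc did not pass, at 34.7 and 17.6 against 30.8, 40.2 and 39.2.

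Among 27 measured cyclin-dependent kinase inhibitors and p53 targets 10 rose and 1 fell (median 0.24; 10 rose and 2 fell with the authors' values, median 0.45). Cdkn2b, p15, rose from 8.65 and 14.01 to 537, 585 and 952 (3.55 ± 0.22, adjusted p 0.000252), with non-tumour liver at 12.6, 10.6 and 8.84. Cdkn1a, p21, rose from 6.70 and 3.36 to 117, 78.8 and 226 (1.72 ± 0.30, adjusted p 0.00723). Cdkn2a, of the neighbouring p16 and p19ARF locus, did not pass at 1.81 and 1.17 against 14.2, 4.23 and 12.6. It was called with an offset of 16, with the authors' values and without tumour 186. Btg2 and Phlda3, targets of p53, rose from 17.8 and 38.3 to 472, 855 and 1079 and from 4.41 and 4.30 to 89.1, 82.5 and 109.6.

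Secreted factors of senescent cells, inflammasome genes and feedback genes of RAS signalling gave 13 of 36, 7 of 21 and 9 of 26 rises, with 2, 3 and 1 falls. These counts moved with the arrays and the values used, for the first list (3 to 15 rose with 1 array left out; 14 rose and 3 fell with the authors' values, median 0.49), for the inflammasome (4 to 8 rose with 1 array left out; 8 rose and 5 fell after scaling to the same median, median 0.13) and for RAS feedback (5 to 8 rose with 1 array left out; 8 rose and 2 fell with the authors' values, median 0.24). Il33, an alarmin, rose from 10.8 and 12.9 to 84.7, 63.6 and 118 (1.15 ± 0.15, adjusted p 0.00269), while Il18, an inflammasome cytokine, fell from 303 and 252 to 92.1, 94.3 and 86.5 (-1.21 ± 0.06, adjusted p 0.000172). Il1b did not pass, at 57.9 and 79.98 against 57.3, 69.1 and 59.8. Il1rn, the interleukin 1 receptor antagonist, was at 3.87 and 1.33 against 123, 153 and 68.05. It was not listed on all 8 arrays, and no test is given for it. Cd14, the endotoxin co-receptor, rose from 13.9 and 25.6 to 275, 382 and 555 (2.66 ± 0.28). Cxcl12, a stromal chemokine, fell from 891 and 871 to 278, 299.5 and 216. Dusp5, a phosphatase induced by ERK, rose from 2.33 and 1.99 to 53.5, 64.6 and 111 (1.25 ± 0.17). Ier3, an early response gene, was at 29.4 and 38.3 against 214, 555 and 1221 (adjusted p 0.0145; 0.0859 without normal diet 117 and 0.0702 without normal diet 120). Ptgs2, the inducible cyclooxygenase, did not pass at 7.73 and 5.55 against 10.05, 10.1 and 8.17 (0.07 ± 0.03, adjusted p 0.121). Of 23 immediate early genes 8 rose and 0 fell (2 lower at an unadjusted p below 0.05; 4 to 8 rose with 1 array left out; 9 rose and 2 fell with the authors' values, median 0.27), among them Maff, from 21.8 and 38.4 to 169.5, 158 and 194.

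Acute phase genes had more rises than falls. Of 37 measured genes 20 rose and 6 fell (median 0.37; 1 to 6 fell with 1 array left out; 14 rose and 7 fell with the authors' values, median 0.23). Mt2 and Mt1, the metallothioneins, rose from 159.7 and 187 to 4033, 2669 and 3125 and from 280.2 and 390.2 to 5018, 3615 and 5259. Cp, the copper oxidase of plasma, rose from 3297 and 2833 to 14549, 12838 and 17219 (2.25 ± 0.13, adjusted p 0.000247), and Serpina3n, a protease inhibitor, from 554 and 544 to 2057, 1905 and 2361. Crp, C-reactive protein, fell from 1566 and 1328 to 639.6, 840.1 and 787. Hamp, which encodes the iron hormone hepcidin, was at 14236 and 9272 against 949, 1259 and 418, with non-tumour liver spread over 865, 1312 and 7004 (adjusted p 0.0233; 0.131 without normal diet 117, 0.0859 without normal diet 120, 0.0527 without tumour 117 and 0.0562 without tumour 1). Id1, like Hamp a target of BMP signals, rose from 235 and 178 to 1139, 938 and 735 (1.93 ± 0.19, adjusted p 0.00109). Slc40a1, the iron exporter, fell from 363 and 328 to 128, 169 and 118.

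Complement and coagulation genes gave 11 falls and 6 rises among 37. Their median was -0.11, 0.01 after scaling to the same median and -0.45 with the authors' values, where 18 fell and 3 rose. Falls ranged over 5 to 12 with 1 array left out. C8b and C6, of the membrane attack complex, fell from 855 and 863 to 126, 92.2 and 74.7 and from 475 and 467 to 66.03, 98.3 and 128. Mbl1, a mannose-binding lectin, fell from 1965 and 1800.1 to 725, 734 and 644. Kng1, kininogen, rose from 677 and 786 to 2686, 1808 and 3081 (1.69 ± 0.21), and Serpinf2, the antiplasmin, from 2057 and 2089 to 5394, 5047 and 4938 (1.28 ± 0.07). Cytosolic ribosomal proteins gave 25 rises and 2 falls among 58 (median 0.30). With the authors' values 2 rose and 6 fell and the median turned to -0.12, and with 1 array left out 9 to 29 rose, so their direction depends on the scaling and their count on the arrays. Rpl13a went from 260.1 and 239 to 493, 463 and 623 (0.94 ± 0.12). Alb, albumin, did not pass at 51172 and 48510.3 against 52932, 55771 and 55771, nor did Ttr, transthyretin, at 46130.4 and 40776 against 44848, 48510.3 and 46130.4. Alb was called after scaling to the same median.

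Genes of other cell types moved in different directions within their lists. Collagen and matrix genes rose in 18 of 42 and fell in 1 (7 to 23 rose with 1 array left out; 20 rose and 2 fell with the authors' values, median 0.85). Col3a1, a fibrillar collagen, rose from 84.9 and 129 to 794, 916 and 516 (2.31 ± 0.26), and Col4a2, of basement membranes, from 39.9 and 49.7 to 196, 222 and 220.0 (1.47 ± 0.10, adjusted p 0.00038). Sparc, a matrix glycoprotein, rose from 129 and 116 to 741, 786 and 552, and Plat, tissue plasminogen activator, from 2.61 and 1.11 to 87.03, 127 and 175. Col1a1 did not pass, at 6.15 and 6.87 against 20.6, 49.02 and 18.04. It was called with an offset of 16, with the authors' values, without tumour 186 and without tumour 1. The summed signal of 5 stellate cell markers was 106 to 116 in tumours and 127 to 145 in normal diet liver, and Lrat, which stores vitamin A in those cells, fell from 64.5 and 50.4 to 23.7, 25.1 and 21.7. Acta2, of activated stellate and smooth muscle cells, ranged over 173, 390.2 and 88.4 in the tumours against 19.4 and 22.2 and did not pass (1.75 ± 0.62, adjusted p 0.0831). It was called with an offset of 16, with the authors' values and without non-tumour 117.

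Macrophage genes rose in 18 of 34 and fell in 5 (10 to 16 rose with 1 array left out), while 3 of 6 defining Kupffer and macrophage markers fell. The summed signal of those 6 markers was 529.7 to 683 in tumours, 810.2 to 890.4 in normal diet liver and 1276 to 1418 in non-tumour liver. Timd4, a Kupffer cell receptor, fell from 14.8 and 27.95 to 2.57, 3.10 and 2.36, and Cd163, a scavenger receptor, from 32.5 and 16.5 to 6.24, 5.57 and 5.79. Adgre1, the F4/80 antigen, did not pass at 9.45 and 8.90 against 9.96, 31.8 and 8.37. Among the rises were genes that other cells also make. Cd63 and Cd9, tetraspanins of vesicles and many membranes, rose from 549 and 479 to 2452, 2932 and 3095 and from 172 and 169 to 960.4, 977 and 1327. Folr2, a folate receptor, rose from 97.9 and 92.7 to 474, 315 and 548 (1.74 ± 0.19). Of the MHC class II genes, H2-Aa rose from 307 and 267 to 1217, 1842 and 1397 (2.17 ± 0.25), with non-tumour liver at 893, 1297 and 754. The part of changed cell numbers in these values was not tested.

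Lymphocyte markers gave 0 calls among 31 in limma's test, with 2 higher and 2 lower at an unadjusted p below 0.05 (1 rose and 7 fell after scaling to the same median, median -0.06). Cd3e, of the T cell receptor complex, was near the blank level at 1.87 and 2.19 against 0.720, 1.40 and 1.38. The summed signal of 4 neutrophil markers was 445 to 544 in tumours and 329.9 to 364 in normal diet liver, where 1 of the 4 rose. Endothelial genes rose in 10 of 32 and fell in 2 (2 to 12 rose with 1 array left out), while 5 endothelial markers summed to 565 to 811 and 764 to 913. Cd34, which marks capillary rather than sinusoidal endothelium, rose from 6.12 and 7.24 to 75.1, 37.2 and 49.02 (0.86 ± 0.14, adjusted p 0.0065), and Wnt2, a central vein signal, from 34.1 and 32.7 to 68.5, 81.1 and 85.7. Of 10 red blood cell genes 4 fell and 0 rose (1 higher at an unadjusted p below 0.05; 0 rose and 4 fell with the authors' values, median -0.42), among them Alas2, of heme synthesis, from 462 and 382 to 129, 122 and 131.

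Some keratins and other epithelial genes rose, while the bile duct markers Krt19 and Sox9 did not pass. Of 23 cholangiocyte, progenitor and keratin genes 10 rose and 0 fell (1 lower at an unadjusted p below 0.05). Krt20, a keratin of gut epithelium, was at 1.57 and 1.09 against 282, 314 and 268. It was listed on every tumour but on only 1 normal liver, so the normal diet group did not let it into the fit. No test is given for it. Krt23 rose from 24.5 and 47.9 to 506, 638 and 289, and Krt18, a keratin of hepatocytes, from 3081 and 3436 to 8334, 7482 and 12383. The bile duct markers Krt19 and Sox9 did not pass, at 12.5 and 18.4 against 19.6, 9.35 and 10.1 and 31.8 and 32.4 against 39.1, 31.6 and 37.3. Sox9 was called after scaling to the same median. The summed signal of 5 cholangiocyte markers was 105 to 156 in tumours and 96.3 to 118 in normal diet liver. Msln, mesothelin of serosal lining and some tumours, rose from 165 and 194 to 586, 702 and 725 (1.65 ± 0.10, adjusted p 0.000268). Annexins, S100 proteins and galectins rose in 13 of 31 and fell in 2 (13 rose and 4 fell with the authors' values, median 0.60). Anxa2, which links membranes to actin, rose from 350.4 and 361 to 3095, 2952 and 3465 (2.99 ± 0.12), and S100a11 from 54.9 and 72.1 to 863, 817 and 1265 (3.16 ± 0.22). S100a1 fell from 1247 and 1149 to 352, 268 and 306 (-1.80 ± 0.13).

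The authors listed 104 genes on every tumour array and on neither normal diet array, and 94 the other way round. A bound on the fold was set from the dimmest listed gene of each array of the group that did not list it, on the scale of the signal plus 50. No test is given for these genes, since the listing that chose them also let them into the fit. Fam83a, an oncogenic adaptor of EGFR signalling, was at least 3.87-fold higher, with tumours at 91.1, 113 and 296. Gldn, gliomedin, was at least 2.26-fold higher at 64.4, 55.7 and 80.5. Nrg1, an ErbB ligand, was at least 1.87-fold higher, Tinag, a basement membrane protein, at least 1.72-fold, and Krt5, a basal keratin, at least 1.61-fold. Csn3, kappa-casein, and Ly6k, a surface protein of testis and tumours, had large bounds (2.92-fold and 2.43-fold) that rested on tumour 1, with signals of 17.8, 23.8 and 633 and 3.11, 2.51 and 656. Of the genes listed in normal liver and not in tumours Armc3, an armadillo repeat protein, had the largest bound (at least 1.58-fold lower in tumours), which rested on normal diet 117, with 79.9 and 1.71 against 1.25, 0.644 and 0.844. The bounds of the others were at most 1.19-fold, with Sult3a1, a sulfotransferase, at 5.68 and 5.47 against 1.004, 1.05 and 1.18.

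The tumours differed more among themselves than the livers did. Over 15335 genes listed on all 8 arrays the median range of log2 values was 0.134 in the 3 tumours, 0.107 in the 3 non-tumour livers and 0.0508 in the 2 normal diet livers. A range over 2 arrays is narrower than over 3 by its construction. Genes with a range of more than 2-fold numbered 204, 66 and 20. Of the 204, tumour 186 was highest for 105 and tumour 1 lowest for 127. With the authors' values the median range of the tumours was 0.4421, and 1303 genes had more than 2-fold. Csn3 and Ly6k, listed on neither normal diet array and so outside that set of genes, also ranged widely and were highest in tumour 1. Among genes listed on all 8 arrays those with the widest ranges included metabolic enzymes lowest in tumour 1. Cyp2e1 spanned 2.73 log2 units and Hpd 2.69, with the signals given above. Cyp4a14, a PPAR alpha target, stood at 561, 724 and 75.7 in tumours, 1855 and 1503 in normal diet liver and 3322, 3276 and 4199 in non-tumour liver, and did not pass against normal liver (-2.14 ± 0.73, adjusted p 0.0743). Cyp4a14 was called after scaling to the same median, with the authors' values, without tumour 186 and without tumour 1. Wfdc21, an antiprotease-like secreted protein, was at 1857, 904 and 327 against 9145 and 7743 (adjusted p 0.00993; 0.0673 without normal diet 117 and 0.053 without normal diet 120). Tumour 186 stood highest for H19 and Acta2, as given above, and for H2-Eb1 of MHC class II (537, 1397 and 513) and Col1a2 (166, 368 and 109.9). Tumour 1 stood highest for the chemokine Cxcl1 (409.9, 858 and 1509.5), the early response gene Ier3 and the hypoxia-induced droplet protein Hilpda (408, 175 and 831). Against normal diet liver H2-Eb1, Col1a2, Cxcl1 and Hilpda were called with all arrays, but not without either normal diet array. Their adjusted p values were then 0.0659 without normal diet 117 and 0.0553 without normal diet 120 for H2-Eb1, 0.12 without normal diet 117 and 0.0894 without normal diet 120 for Col1a2, 0.074 without normal diet 117 and 0.111 without normal diet 120 for Cxcl1 and 0.0957 without normal diet 117 and 0.0799 without normal diet 120 for Hilpda.

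**Figure D3:**
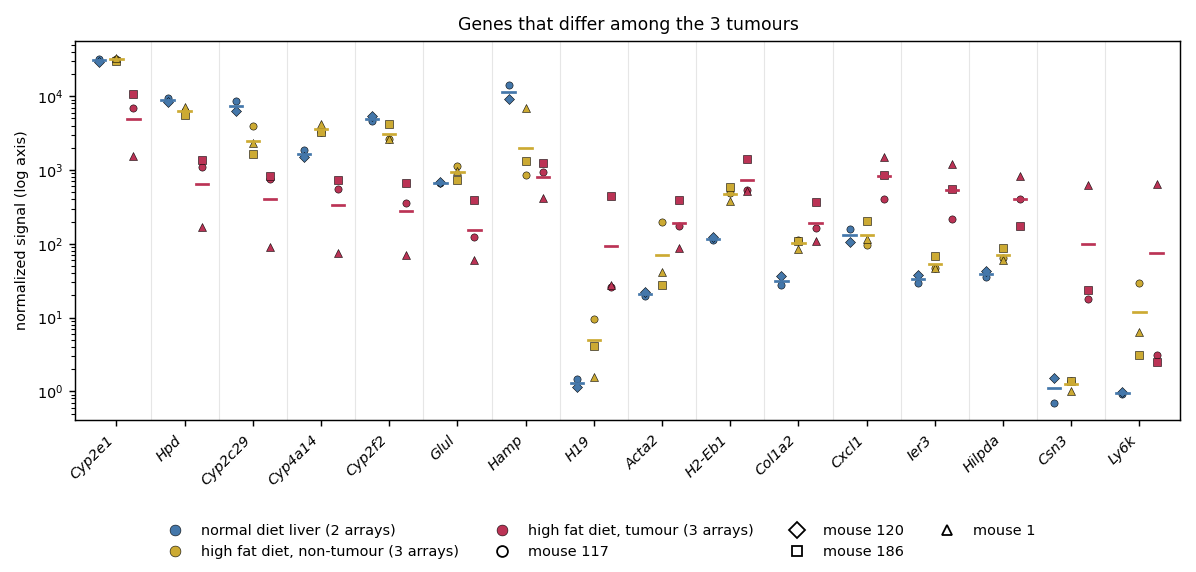
Points show the normalized signal (log axis) of 16 genes on each array, with a marker shape per mouse, colours for normal diet liver, non-tumour and tumour tissue, and bars at the mean of the log2 values. Tumour 1 is lowest for Cyp2e1, Hpd, Cyp2c29 and Cyp4a14, tumour 186 is highest for H19, Acta2, H2-Eb1 and Col1a2, and tumour 1 is highest for Csn3 and Ly6k.

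Non-tumour liver of the same high fat diet mice, set against the same 2 normal diet livers, had 645 called genes (3.84%), 304 upward (1.81%) and 341 downward (2.03%). The comparisons share the normal diet arrays, so no overlap or correlation between them is given, and the values stand side by side. Some genes stood as far from normal diet liver in non-tumour tissue as in tumours. Hsd3b5 was at 13.2, 5.79 and 5.98 in non-tumour liver (log2 difference from normal diet liver -5.74, adjusted p 2.34e-06, against -5.85 ± 0.08 in tumours). C8b was at 123, 111 and 139 (-2.39 and -2.64 ± 0.14), and Fabp2, a fatty acid binding protein of the intestine, at 3168, 3005 and 3221 (1.69 and 1.63 ± 0.17). Anxa5, which binds phosphatidylserine, was at 1553, 2361 and 2033 (2.003 and 2.16 ± 0.25), and Lgals1, galectin 1, at 2205, 2457 and 3239 (1.96 and 1.47 ± 0.17). Saa1, serum amyloid A, was higher in non-tumour liver at 3405, 5208 and 4834 than in tumours at 1731, 2181 and 1622 or normal diet liver at 1167 and 732, and the difference between non-tumour tissue and tumours was not tested. Against normal diet liver Saa1 had a limma adjusted p of 0.0363 in tumours. It was 0.074 without tumour 117, 0.0842 without tumour 186, 0.0556 without non-tumour 1 and 0.0525 without tumour 1. Without normal diet 120 the log2 difference of Saa1 was 0.62 and its call was lost. With the authors' deposited values Saa1 did not pass (log2 difference 0.50, adjusted p 0.174), nor with the 5 arrays compared alone (adjusted p 0.0556).

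Others had a log2 difference from normal diet liver of at most 0.27 in non-tumour tissue and of over 3 in tumours. Afp was at 6.94, 8.98 and 6.49 in non-tumour liver (log2 difference 0.05, adjusted p 0.949, against 4.29 ± 0.26). Gpc3 was at 10.03, 12.4 and 18.1 (0.18 and 4.16 ± 0.14), Scd2 at 48.5, 29.6 and 24.5 (0.27 and 4.26 ± 0.15) and Psat1 at 15.98, 19.1 and 14.7 (0.23 and 3.06 ± 0.30). Others lay between. Igf1 was at 2749, 2641 and 2522 (-0.58 and -3.43 ± 0.44), and Gnmt at 4318, 3785 and 5018 (-0.79 and -3.14 ± 0.38). Ly6d was at 1566, 2106 and 1433 (4.48 and 7.03 ± 0.23), Apoc2 at 6488, 6277 and 6400.0 (1.72 and 3.39 ± 0.12) and Nat8 at 139.5, 124 and 164 (-2.03 and -3.46 ± 0.14). By lists, non-tumour liver had 12 rises among 37 acute phase genes, 9 among 30 lipid storage genes and 7 among 31 annexins, S100 proteins and galectins. The 40 fatty acid oxidation genes gave 7 rises and 1 fall. The 39 cytochrome P450 genes had 8 falls and 5 rises, and so had the 35 sex-biased or pulse-dependent genes. Falls numbered 7 of 37 in complement and coagulation, 3 of 20 in cholesterol synthesis, 3 of 37 in amino acid breakdown and 1 of 74 in oxidative phosphorylation. These counts are to be read against the 1.81% higher and 2.03% lower of all genes tested. Fewer calls in one comparison than in the other do not test the difference between tumour and non-tumour tissue.

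**Figure D4:**
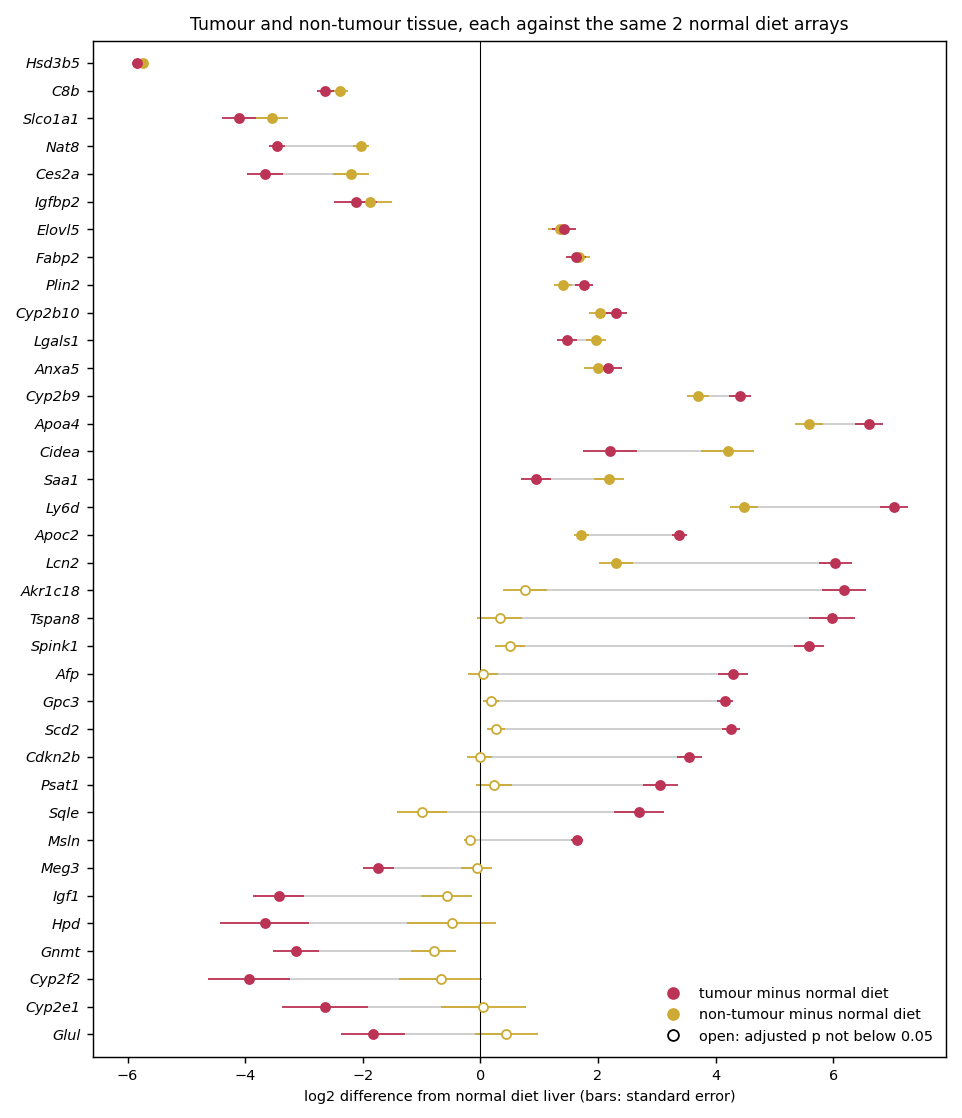
Paired points show, for 36 genes, the log2 difference from normal diet liver of non-tumour liver and of tumours, with bars of 1 SE and open points where the adjusted p was not below 0.05. Hsd3b5, C8b and Anxa5 lie at about the same place in both tissues, while Afp, Gpc3, Scd2 and Cdkn2b are within 0.27 of 0 in non-tumour liver and between 3.55 and 4.29 in tumours.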

How the data were processed

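Total RNA of 8 tissue samples was amplified, labelled with Cy5 and hybridised to 1-colour arrays, per the labels' protocols. The deposited scanner files hold an intensity per spot, and the authors' deposited tables hold normalized intensities. Recomputed from the scanner files, these equal the spot median minus the blank mean, scaled so that the listed probes of each array have a median of 25. The scaling factors were 1.20 and 1.29 on the normal diet arrays and 0.777 to 0.901 on the high fat diet arrays. Blank means were 18.4 and 18.5 against 20.5 to 22.7. Raw array brightness thus varied with the diet, and its part in the differences was not tested. Probes near the blank level are not listed. How the scanner was set is not given in the sources used here. The number of arrays limits the precision.

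Spot intensities were corrected with limma 3.58.1 (normexp, blank spots as negative controls, offset 50), quantile normalized and taken to log2 in R 4.3.3. Of 23473 probes 20690 had 1 gene symbol and 2783 none. For 1288 genes with several probes the probe with the highest mean was kept. Testing needed a listed value on every array of some group (2520 of 19316 genes had none). Group means were fitted to all 8 arrays, moderated with eBayes (residual degrees of freedom 5, prior 1.49), tested 2-sided and adjusted by Benjamini-Hochberg over all genes, with calls at an adjusted p below 0.05. Data were simulated for the tumour comparison (16796 genes), with independent normal noise and 50 genes changed at each size. Log2 changes of 0.5, 1, 2 and 4 were recovered in 80%, 92%, 100% and 100% of genes. Of the unchanged genes 0.127% were called. Far fewer genes were changed than the 4670 called in the data, so these percents do not give the share of false calls among those.

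The members and the 45 lists were chosen with earlier results of these data known. Named genes come from the 15 largest rises and falls listed on every array of both groups without overlap, the 10 brightest listed in 1 group only on either side, up to 6 called members per list and direction, a set chosen for their known roles, and the 10 widest tumour ranges. The text takes a part of these, and Nupr1 and Chac1, outside the rule, were chosen after their values were seen. Alternatives changed the background, offset, normalization, filter, probe choice and arrays, and used mouse as a random block.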

Additional observations from a re-analysis of the deposited data

How the results depend on the processing

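The count of called genes (4670) stayed within 1.5 times under blank subtraction (4673), an offset of 16 (5076), the same median (6852), the authors' values (5253), no filter (4594), genes listed on all 8 arrays (4540), the 5 arrays compared alone (3633) and the mean of all probes (4681). With mouse as a random block, the replicate block that the shared numbers of tumour and non-tumour tissue allow (consensus correlation 0.199), it was 4701, and among the called named genes the block ended 1 call, of Glul. With the local background 217 genes passed (130 higher, 87 lower; 2106 at an unadjusted p below 0.05), and 3 for non-tumour liver (0 higher, 3 lower; 801 at an unadjusted p below 0.05). It turned Hsd3b5 to 0.4228 (adjusted p 0.0539), Cox6c to 1.691 (adjusted p 0.8441), Rora to -0.2973 (adjusted p 0.8859) and Gata6 to -0.1729 (adjusted p 0.8842). The cause was not tested. Scaling to the same median gave 4181 lower genes, and 1403 called and 1084 higher for non-tumour liver. The median range of the tumours was 0.4421, with 1303 genes over 2-fold, on the authors' values. Leaving out each array in turn gave 2326 to 4411 called genes (1042 to 2161 higher, 1284 to 2376 lower), and 117 to 777 for non-tumour liver (57 to 390 higher, 60 to 387 lower). The lowest counts came without a normal diet array, where the lone one is assumed to vary like the other groups. Of 183 called genes named in the text, 179 kept their direction with the local background and 55 their call, and the direction held for every one tested under all other settings. Without normal diet 117 the calls of 18 were lost, without normal diet 120 those of 19, and without any other array 1 to 5. Fam83a and Sult3a1, for which no test is given above, are among those lost without either normal diet array. The 5 arrays alone ended 11 calls. Calls were also gained among the 22 named genes that did not pass. An offset of 16 gave 4, the same median 5 and the authors' values 7, and leaving out tumour 186 or tumour 1 gave 5 each. The offset understates folds most where either group lies near or under the median signal of 31.2, and less at brighter levels.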

Other observations

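Interferon-induced and antigen presentation genes rose in 15 of 42 and fell in 3 (median 0.14; 6 to 16 rose with 1 array left out; 11 rose and 7 fell with the authors' values, median 0.07). H2-Q7, a class Ib MHC gene, rose from 3454 and 3553 in normal diet liver to 6655, 9622 and 8409.6 in tumours (1.20 ± 0.15, adjusted p 0.00251), while Ifi47, an interferon gamma-induced GTPase, fell from 284 and 278 to 138, 151 and 172 (-0.70 ± 0.11, adjusted p 0.00481). Hepatocyte transcription factors fell in 11 of 32 and rose in 3 (median -0.23; 2 to 10 fell with 1 array left out; 2 rose and 18 fell with the authors' values, median -0.63). Nr2f1, an orphan nuclear receptor, fell from 48.5 and 52.6 to 22.3, 30.5 and 17.9 (adjusted p 0.00788; 0.0579 without normal diet 120). Gata6, a factor of early endoderm, rose from 44.6 and 46.4 to 86.3, 73.6 and 85.3, and also had another sign with the local background. Prostaglandin genes gave 4 rises and 3 falls among 22 (1 to 4 rose with 1 array left out; 3 rose and 6 fell after scaling to the same median, median -0.02), with Ptgds, a prostaglandin D synthase, lower at 10.9, 9.93 and 9.79 against 25.5 and 32.2 (-0.39 ± 0.04, adjusted p 0.00128). Of 19 clock genes the single rise was Rora, a nuclear receptor that drives Arntl, from 231 and 187 to 358, 364 and 431 (0.75 ± 0.10, adjusted p 0.00301), with another sign under the local background, and 0 fell (4 lower at an unadjusted p below 0.05; 1 rose and 5 fell with the authors' values, median -0.61). Hepatic stellate cell genes gave 3 rises and 3 falls among 22 (5 rose and 5 fell after scaling to the same median, median 0.11), iron genes 4 and 6 among 20 (3 to 7 fell with 1 array left out; 2 rose and 10 fell with the authors' values, median -0.53), neutrophil genes 3 rises among 15, and markers of muscle, mesothelium, pancreas and fat tissue 4 and 1 among 22 (4 rose and 5 fell after scaling to the same median, median -0.07).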
